A study of Mus musculus with 9 samples.

Results

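Etv1, Etv4 and Etv5 are the 3 members of the PEA3 subfamily of ETS transcription factors, and they are described here over 0 h, 24 h and 48 h of the differentiation of mouse spermatogonial stem cells (SSCs) in culture. The members were taken by name, as a subfamily, from the 46078 genes in the count data. Earlier results of these data were known when they were chosen, among them the paper's report that Etv5 was lower after differentiation. All 3 were found. The cells were EGFP-SSCs, a wild-type (WT) mouse SSC line that carries enhanced green fluorescent protein. The 0 h group was in normal culture, on feeder layers of mouse embryonic fibroblasts whose division had been stopped with mitomycin C, in medium with glial cell line-derived neurotrophic factor (GDNF), basic fibroblast growth factor (FGF2) and epidermal growth factor. The 24 h and 48 h groups came from the same line, combined in equal numbers with somatic cells from the testes of busulfan-treated young mice, a treatment that depletes germ cells. Their medium held retinoic acid, BMP-4/7, activin A, testosterone, FSH, bovine pituitary extract and knockout serum replacement, and its listed components include neither GDNF nor FGF2. EGFP-positive cells were sorted at 24 h and 48 h. Each time had 3 libraries of poly-A RNA, named biological replicates 1 to 3, all from 1 cell line. Since separate cultures are not described for them, p-values measure the spread between these libraries. The medium, the somatic cells and the time in culture changed together and cannot be told apart.

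ETS factors share a DNA-binding domain that recognises a GGAA core, and the PEA3 factors also carry a conserved acidic activation domain. In many tissues they act downstream of receptor tyrosine kinases: GDNF or fibroblast growth factor activates RAS and the kinase ERK, ERK relieves the repressor Capicua (Cic) at PEA3 genes, and the factors in turn raise genes for receptors and migration. In the testis, ETV5 is needed to keep the SSC pool, and SSC cultures depend on GDNF acting through the receptor RET and its co-receptor GFRA1. The comparisons of times address how the expression of these 3 factors moved when SSCs left this medium.

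Library totals ran from 16825251 to 22201892 counts. Counts of replicate pairs differed by a chi-square of 7.78 to 90.9 for each degree of freedom, which is more than sampling noise, so each library counted as 1 replicate. Levels within 1 gene are given as CPM (counts scaled to a common library size), scaled by the TMM method of edgeR over the 9 libraries, and levels between genes as FPKM (counts scaled in the same way and divided by exon length in kilobases), with the union of a gene's exons as its length. The summed CPM of 9 germ cell markers was 2084 to 3045 at 0 h, then 2139 to 2356 and 2054 to 2235 at the later times, with all 9 above 3 counts at each time. Of the 9, 2 were called lower and 1 higher at 24 h against 0 h. At 48 h against 0 h, 4 were called lower and none higher. The shares over all genes tested were 14.2% lower and 11.4% higher at 24 h, and 18.5% and 13.0% at 48 h. Markers of other testis cells moved between the groups and are given below beside the results they touch. In bulk RNA, fewer cells that express a gene and less of its RNA in each cell cannot be told apart.

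Etv5 (ENSMUSG00000013089) lies on the minus strand of GRCm38 at chr16:22381309-22439719 and has 5 annotated transcripts, 3 of them coding. Etv4 (ENSMUSG00000017724) lies on the minus strand at chr11:101769742-101785371 and has 12 transcripts, 3 of them coding. Etv1 (ENSMUSG00000004151) lies on the plus strand at chr12:38779380-38870484 and has 13 transcripts, 10 of them coding. The union of exons measures 4103 bases for Etv5, 3104 for Etv4 and 13296 for Etv1. No other annotated gene overlapped their exons. Of the longest transcript of Etv5, 42.8% matched the processed pseudogene Gm4798 at 97% identity or more over at least 75 bases, and of that of Etv1, 21.8% matched the processed pseudogene Gm5454. Etv4 had no such match. Gm5454 had at most 3 counts in each library, and counts of Gm4798 were not used here, so how far reads were shared with these copies was not tested.

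The regions around the annotated starts are shown because PEA3 genes are known targets of the repressor CIC and of ETS factors themselves. RefSeq sequences (GRCm38.p6) of 250 bases before and 50 after a start were found for 2 of the 3 members, Etv1 and Etv5, each with 2 starts. They were searched on both strands for TGAATG, the core of the CIC octamers TGAATGAA and TGAATGGA, and for GGAAGT, an ETS core. These letters were chosen after the sequences had been seen, and the cores do not overlap each other. The Etv5 start inside the gene at chr16:22438319-22438618 (minus strand) and the first Etv1 start at chr12:38779832-38780131 (plus strand) follow, with matches in capitals.
Etv5 inner start: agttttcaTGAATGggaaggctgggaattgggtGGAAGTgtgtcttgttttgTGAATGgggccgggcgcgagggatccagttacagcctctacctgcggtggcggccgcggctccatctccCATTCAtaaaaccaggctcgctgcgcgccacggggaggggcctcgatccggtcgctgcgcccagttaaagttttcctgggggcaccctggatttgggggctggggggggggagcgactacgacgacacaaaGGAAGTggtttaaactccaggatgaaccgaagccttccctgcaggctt
Etv1 first start: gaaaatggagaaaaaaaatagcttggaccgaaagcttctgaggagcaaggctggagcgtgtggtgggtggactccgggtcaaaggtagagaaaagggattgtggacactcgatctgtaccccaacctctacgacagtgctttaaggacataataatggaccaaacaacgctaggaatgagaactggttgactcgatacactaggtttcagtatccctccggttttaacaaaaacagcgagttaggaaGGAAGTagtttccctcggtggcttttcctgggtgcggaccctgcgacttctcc
The Etv5 region held 3 matches to TGAATG, 1 of them on the other strand as CATTCA, and 2 to GGAAGT. It held neither full octamer. The Etv1 region held 1 match to GGAAGT and none to TGAATG. The other Etv5 start (chr16:22439521-22439820) and the other Etv1 start (chr12:38783461-38783760) held neither core. Over 32817 RefSeq promoters of the same length, 12.7% held TGAATG and 23.8% held GGAAGT, while 1.30% held TGAATGAA and 1.21% held TGAATGGA. A match describes letters and no binding was measured.

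At 0 h, Etv5 was the most abundant ETS factor per length, and by 24 h most of its RNA was gone. Its counts were 8068, 10110 and 11369 at 0 h, then 247, 190 and 236 at 24 h, and 143, 191 and 149 at 48 h. In CPM these were 503, 501 and 566 at 0 h, then 12.1, 10.2 and 11.5 at 24 h, and 7.48, 8.29 and 7.54 at 48 h. Every 0 h library was far above every later one, and the 24 h and 48 h libraries did not overlap either. Etv5 fell by 5.52 on the log2 scale from 0 h to 24 h (SE 0.138, adjusted p = 2.68e-06, quasi-likelihood test of edgeR, Benjamini-Hochberg adjustment over the 17592 genes tested), which left 2.15% of the 0 h mean and ranked 19 among the falls of all genes tested. Against 0 h, the 48 h level fell by 6.07 (SE 0.131, adjusted p = 1.92e-06, same test over 17755 genes), with 1.49% of the mean left and rank 12. Both comparisons use the same 0 h libraries.

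Etv4 had the same order of times as Etv5 with a smaller fall. Its counts were 3080, 5093 and 5631 at 0 h, then 340, 312 and 318 at 24 h, and 164, 238 and 169 at 48 h. In CPM these were 192, 253 and 280 at 0 h, then 16.7, 16.7 and 15.5 at 24 h, and 8.58, 10.3 and 8.55 at 48 h. Replicate 1 was the lowest 0 h library, and the 3 times did not overlap. Etv4 fell by 3.88 from 0 h to 24 h on the log2 scale (SE 0.167, adjusted p = 1.57e-05, edgeR), and its log2 change from 0 h to 48 h was -4.72 (SE 0.19, adjusted p = 1.1e-05, edgeR). These falls left 6.74% and 3.79% of the 0 h mean and ranked 90 and 69.

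Etv4 and Etv5 are thus 2 of the 3 members called lower in both comparisons with 0 h, and Etv1 had too few counts for the filter. Over all genes tested, 14.2% were called lower and 11.4% higher at 24 h against 0 h, and 18.5% were called lower and 13.0% higher at 48 h against 0 h. The median log2 fold change of all genes was 0.00 and 0.02. Scaling by library size alone in place of TMM moved that median by 0.113 and 0.11, small beside the falls of Etv4 and Etv5.

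**Figure D1:**
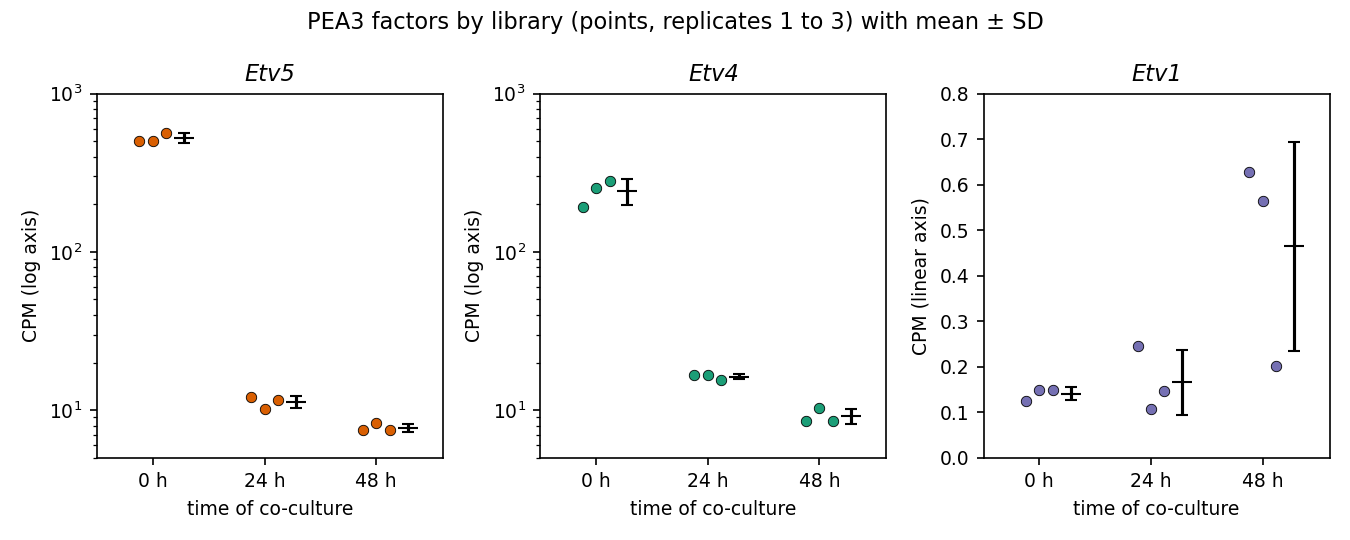
Level of Etv5, Etv4 and Etv1 in CPM (vertical axis, log scale for Etv5 and Etv4, linear for Etv1) at 0 h, 24 h and 48 h of co-culture. Points are the 3 libraries of each time in order of replicate number and bars are the mean ± SD; Etv5 and Etv4 start above 190 CPM and lie under 17 CPM at 24 h and 48 h, while Etv1 stays under 0.7 CPM in every library.

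A further, much smaller decrease followed between 24 h and 48 h. Etv4 fell by 0.84 on the log2 scale (SE 0.113, adjusted p = 0.00147, edgeR over 17499 genes), which left 56.2% of the 24 h mean. Etv5 fell by 0.55 (SE 0.122, adjusted p = 0.0135, edgeR), which left 69.0%. In this comparison 12.7% of all genes tested were called lower and 8.61% higher. The Etv5 call rested on single libraries: without replicate 1 of 24 h the change was -0.49 (adjusted p = 0.058, edgeR), and without replicate 1 of 48 h it was -0.50 (adjusted p = 0.0667). Of the 9 germ cell markers, 4 were called lower and none higher over the same interval: Gfra1 (-1.02), Lin28a (-0.52), Zbtb16 (-0.41) and Sall4 (-0.36), changes near those of Etv4 and Etv5 in size. The other 5, Ddx4, Dazl, Dppa4, Mael and Tex101, did not pass the test (-0.05 to 0.27), and the median of the 9 was -0.05. Likewise 7 of 9 fibroblast and stromal markers were called higher and 1 lower, and their summed CPM went from 2159 to 2518 at 24 h to 2966 to 3286 at 48 h. The part of other cells in this small decrease was not tested.

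Etv1 was close to the floor of 3 counts in a library. Its counts were 2, 3 and 3 at 0 h, then 5, 2 and 3 at 24 h, and 12, 13 and 4 at 48 h. In CPM these were 0.125, 0.149 and 0.149, then 0.245, 0.107 and 0.146, then 0.628, 0.564 and 0.202. Replicates 1 and 2 of 48 h stood above the rest, and replicate 3 of 48 h lay among the 24 h libraries. The 48 h libraries all lay above the 0 h libraries. Etv1 did not pass the expression filter of any comparison, so the mean CPM was compared with a two-sided exact permutation test, which cannot go below p = 0.1 with 3 libraries against 3. The difference was 0.0253 CPM at 24 h against 0 h (exact permutation p = 0.9), 0.324 CPM at 48 h against 0 h (p = 0.1 by the same exact test) and 0.299 CPM at 48 h against 24 h (exact p = 0.2). Summed over libraries, 29 counts at 48 h against 8 at 0 h gave a ratio of 3.56 per library total, with a 95% exact interval of 1.59 to 9.02 that covers counting error only. The ratio was 1.29 (0.458 to 3.76) for 10 counts at 24 h against the 8 at 0 h. With the filter removed, edgeR gave Etv1 a log2 change of 1.67 at 48 h against 0 h (adjusted p = 0.159), so no change of Etv1 passed the threshold at this depth.

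Etv5 lost more of its RNA than Etv4, which turned their order round. Within a library, the ratio of Etv4 to Etv5 counts does not depend on scaling between libraries. It was 0.382, 0.504 and 0.495 at 0 h, then 1.38, 1.64 and 1.35 at 24 h, and 1.15, 1.25 and 1.13 at 48 h. All 0 h libraries held fewer Etv4 than Etv5 counts and all later libraries held more. On the log2 scale the mean ratio was -1.13 ± 0.224 (SD, n = 3) at 0 h, then 0.53 ± 0.156 at 24 h and 0.23 ± 0.0741 at 48 h. The times differed by an exact permutation test over the 1680 assignments of the 9 libraries (p = 0.00357, the smallest this test can give, and the same after Benjamini-Hochberg adjustment over the 3 pairs of members). The ratios of Etv1 to Etv5 and of Etv1 to Etv4 gave the same exact permutation p. They rose from a log2 mean of -11.6 and -10.5 at 0 h to -4.13 and -4.37 at 48 h, with at most 13 Etv1 counts in a library. With so few Etv1 counts, these ratios mostly repeat the falls of Etv5 and Etv4 and cannot show whether Etv1 changed.

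**Figure D2:**
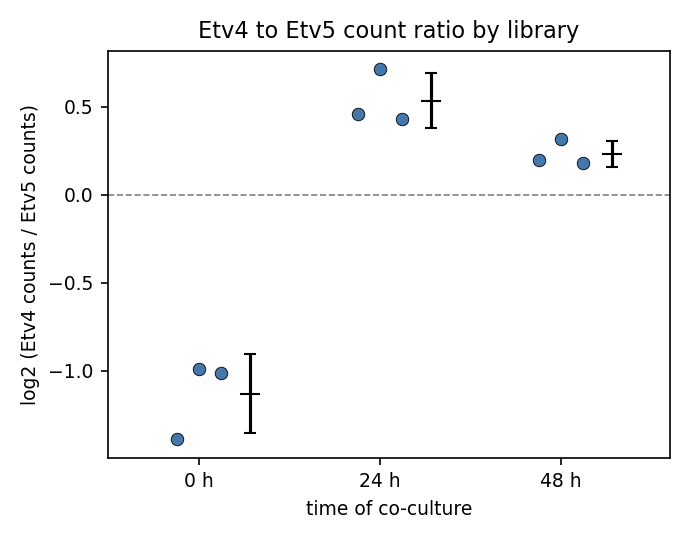
Log2 ratio of Etv4 to Etv5 counts within each library (vertical axis) at 0 h, 24 h and 48 h, with points for the 3 libraries and bars for the mean ± SD. The 0 h libraries lie below the dashed line of equal counts (mean -1.13), and the 24 h (0.53) and 48 h (0.23) libraries above it.

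Per length, Etv5 led at 0 h and Etv4 led afterwards. Etv5 had 128 ± 9.01 FPKM (SD, n = 3) at 0 h, then 2.75 ± 0.246 at 24 h and 1.89 ± 0.11 at 48 h. Etv4 had 77.8 ± 14.6, 5.25 ± 0.215 and 2.95 ± 0.329 FPKM at these times. Etv1 had 0.0106, 0.0125 and 0.035 FPKM. The libraries of Etv4 and Etv5 did not overlap at any time, since Etv5 ranged from 122 to 138 FPKM and Etv4 from 61.8 to 90.3 at 0 h, and Etv4 ranged from 5.00 to 5.38 and Etv5 from 2.47 to 2.95 at 24 h. At 48 h, Etv4 ranged from 2.75 to 3.33 FPKM and Etv5 from 1.82 to 2.02.

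Among the 26 ETS genes, Etv5 and Etv4 were therefore the top pair at 0 h and fell to the middle of the order. Next at 0 h came the repressor Erf, with 17.7 to 44.9 FPKM, below the range of Etv4. At 24 h Etv4 was 10th, between Ets1 (5.86 to 6.09 FPKM) and Etv3 (4.47 to 4.85 FPKM), without overlap with either. Etv5 was 13th, and its range overlapped that of Ets2 above it (2.71 to 2.98 FPKM). At 48 h Etv4 was 11th and Etv5 14th. The 3 PEA3 factors together made up 58.5% ± 2.20 (SD, n = 3) of the summed FPKM of all ETS genes at 0 h, with 56.0% to 60.0% in the libraries, then 4.73% ± 0.0653 at 24 h and 3.09% ± 0.273 at 48 h. The summed FPKM of the 26 genes was 351 ± 37.4 at 0 h, then 169 ± 5.35 at 24 h and 158 ± 0.569 at 48 h.

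The other 23 ETS factors did not move as one. Of 16 tested, 3 were called lower and 4 higher at 24 h, and 5 lower and 4 higher at 48 h, both against 0 h. Among all genes tested, the shares were 14.2% lower and 11.4% higher at 24 h, and 18.5% and 13.0% at 48 h. Whether the 16 differ from these shares was not tested. Erg, best known from endothelial and blood cells, rose from 4.70 FPKM to 30.8 and 29.5 over the 3 times (log2 changes 2.73 and 2.65, edgeR), and Elf4 rose by 0.83 and 0.62. These were the 2 highest ETS factors at 24 h and 48 h. Endothelial markers (5 genes) were mixed beside Erg. In both comparisons with 0 h, Pecam1 (log2 changes -2.55 and -2.39, edgeR) and Kdr (-2.36 and -3.34) were called lower. Tie1, with 3 to 6 counts in the 0 h libraries, was called higher in both (1.65 and 1.71). Cdh5 did not pass the test in either and Emcn was not tested. The summed CPM of the 5 was 42.3 to 46.1, then 12.3 to 15.0 and then 8.80 to 9.60. The part of endothelial cells in the change of Erg was not tested. Fev, an ETS factor known from serotonin neurons, fell (-5.04 and -5.11), beside the fall of Etv5. Ets2, itself a known ERK target, fell (-0.79 and -1.22), and Elf1 and Etv6 rose.

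**Figure D3:**
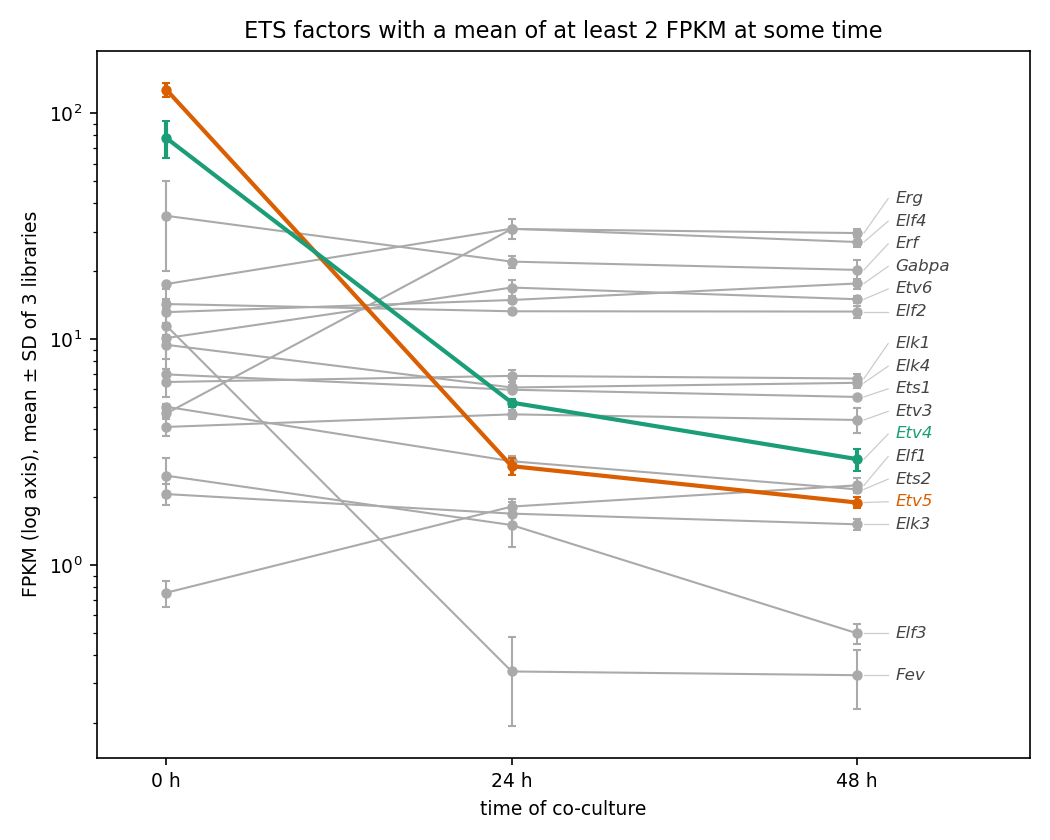
Mean level in FPKM (vertical axis, log scale) at 0 h, 24 h and 48 h of the ETS factors that reached a mean of 2 FPKM at some time, with bars for the SD of 3 libraries. Etv5 (orange) and Etv4 (green) start at 128 and 77.8 FPKM, above all other factors (grey), and reach 1.89 and 2.95 FPKM at 48 h, among factors such as Ets2 and Elf1.

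The genes whose levels followed those of the members most closely were sought among 12610 genes with at least 5 CPM at some time, by the root mean square difference of centred log2 CPM over the 9 libraries. For Etv5 they were Dusp6 (0.187), a phosphatase that inactivates ERK, Lhx1 (0.198), a GDNF-induced homeobox factor, and Tcl1 (0.233), an AKT cofactor. Pearson's r over the 9 libraries was 0.998, 0.998 and 0.997. For Etv4 they were Tmem132e (0.113), Epha2 (0.173), an ephrin receptor induced by ERK, and Exoc3l (0.189), with r of 0.999, 0.997 and 0.996. With 3 times and a single large step, these likenesses describe the pattern and carry no test.

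The genes of ERK output fell beside Etv4 and Etv5. Of 20 such genes, 18 were called lower at 24 h and 18 at 48 h, both against 0 h, with none called higher in either. The median log2 changes of the 20 were -1.62 and -2.14. Over all genes tested, 14.2% and 18.5% were called lower. Dusp6, the feedback inhibitor Spry4 and Dusp4 fell, with log2 changes of -5.72, -6.24 and -4.09 at 24 h and of -5.87, -6.12 and -4.71 at 48 h. Dusp6 had 315, 5.92 and 5.39 CPM in order of time. Epha4 and Myc did not pass the test in either comparison, with log2 changes of -0.31 and -0.07 at 24 h. Between 24 h and 48 h, where Etv4 and Etv5 had their small decrease, 8 of the 20 were called lower and 1 higher. The shares over all genes tested were 12.7% lower and 8.61% higher.

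The GDNF-responsive genes of SSCs behaved alike. All 8 were called lower in both comparisons with 0 h, beside 14.2% and 18.5% of all genes tested. The medians of the 8 were -3.59 and -3.72. The 8 include Bcl6b, an SSC self-renewal factor, which had 338, 27.6 and 30.9 CPM in order of time. They also include Lhx1, which had 145, 3.34 and 2.57 CPM. The paper reported Bcl6b and Lhx1 as lower after differentiation, and the list was chosen with earlier results of these data known. Egr2, Egr3 and Nefm fell, with log2 changes of -3.58, -5.76 and -5.03 at 24 h. Id4, a marker of the most stem-like spermatogonia, fell by 2.50 at 24 h and then rose by 0.87 between 24 h and 48 h (adjusted p = 0.0019, edgeR), unlike Etv4 and Etv5.

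Genes known as targets of PEA3 factors in other settings did not all follow them. Of the 6, 3 were called lower and 1 higher at 24 h, and 3 lower and 2 higher at 48 h, against 0 h. Among all genes tested, 14.2% were called lower and 11.4% higher at 24 h, and 18.5% and 13.0% at 48 h. Ret, the GDNF receptor kinase, had 643 CPM at 0 h and 47.0 and 34.4 CPM afterwards, and fell, with log2 changes of -3.76 and -4.22. The chemokine receptor Cxcr4 fell too (-2.71 and -3.02). T (Brachyury) had 23 to 45 counts at 0 h and at most 3 in each later library, so that it was at least 12.3-fold lower at 24 h and at least 12.8-fold lower at 48 h against a floor of 3 counts per library. Met, the receptor of hepatocyte growth factor, rose by 1.64 and 2.45, from 11.7 CPM at 0 h to 36.0 and 63.6. The matrix protease Mmp14 did not pass the test at 24 h (0.20) and rose by 0.80 at 48 h. Myb did not pass the test, with -0.66 and -0.62. The summed CPM of the 9 fibroblast and stromal markers went from 321 to 416 at 0 h to the ranges at 24 h and 48 h given above. Of these 9 markers, 6 were called higher and 1, Thy1, lower in both comparisons. Peritubular myoid markers (6 genes) summed to 13.7 to 15.6 CPM in the 0 h group, 146 to 207 at 24 h and 263 to 321 at 48 h, with 5 called higher and Des not called in both comparisons with 0 h. Sertoli markers (8 genes) summed to 15.2 to 19.3, 52.8 to 84.0 and 66.8 to 70.7 CPM at these times, with Fshr at or under 3 counts in every library. Of 7 Sertoli markers tested, 6 were called higher in both comparisons, while Sox9 was called lower at 24 h (-0.80) and did not pass at 48 h (-0.57). Amh then fell by 2.83 between 24 h and 48 h. Leydig markers (6 genes) summed to 4.48 to 6.79, 24.6 to 38.5 and 25.2 to 32.5 CPM, with Lhcgr likewise at or under 3 counts. Macrophage markers (5 genes) summed to 15.5 to 18.3, 6.20 to 10.1 and 6.33 to 9.21 CPM, a sum made up at 0 h mostly of Cd68 (mean 15.7 CPM). They were mixed at 24 h against 0 h, where Cd68 was called lower (-1.42), Csf1r higher (1.90) and Lyz2 not called. Adgre1 and Ptprc were not tested. The part of these cells in the rises was not tested.

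The regulators that act on the PEA3 genes or proteins moved in both directions. Of 10 tested, 2 were called lower and 2 higher at 24 h, and 3 lower and 1 higher at 48 h, with medians of 0.01 and 0.00. Over all genes tested, 14.2% were called lower and 11.4% higher at 24 h, and 18.5% and 13.0% at 48 h. With 10 genes, the counts do not set this list apart from all genes. Without replicate 1 or replicate 2 of 24 h, 2 regulators in place of 4 were called at 24 h. Cic, the repressor of PEA3 genes, had 247, 403 and 335 CPM in order of time, a log2 rise of 0.72 at 24 h (adjusted p = 0.0187, edgeR). Its change at 48 h, 0.45, did not pass the test (adjusted p = 0.0724, edgeR). Cop1, the ubiquitin ligase that degrades PEA3 proteins, had 48.3, 44.4 and 47.8 CPM and did not pass the test. Trib1 and Trib2, pseudokinases that work with COP1, fell in both comparisons, with log2 changes of -2.32 and -1.50 at 48 h, and Det1, a partner of COP1, rose by 0.61 and 0.93. Protein levels were not among the data analysed here.

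Of the 26 receptors and cascade genes upstream of ERK, 6 were called lower and 5 higher at 24 h against 0 h. At 48 h against 0 h, 6 were called lower and 4 higher. The shares over all genes tested were 14.2% lower and 11.4% higher at 24 h, and 18.5% and 13.0% at 48 h. Whether this list differs from those shares was not tested. The median log2 changes of the 26 were -0.01 and -0.06. The co-receptor Gfra1 had 230 CPM at 0 h and 36.4 and 18.0 CPM afterwards (log2 changes -2.65 and -3.67). The FGF receptor Fgfr1 fell as well (-1.24 and -1.30). Of the other FGF receptors, Fgfr2 and Fgfr3 did not pass the test in either comparison, and Fgfr4 was called higher (0.985 and 0.683). Map2k1, a kinase of the cascade, fell (-0.45) at 24 h and its relative Map2k2 rose (0.55), beside -3.88 for Etv4 and -5.52 for Etv5. The ligand Gdnf rose, from 0.224 CPM to 1.64 and 1.37 CPM beside the Sertoli and myoid marker values above, and the part of those cells was not tested. The number of calls in this list changed as single libraries were left out, as did that over all genes. At 24 h against 0 h, 5 genes in place of 11 were called without replicate 1 of 24 h, and 6 without replicate 2 or 3 of 24 h or replicate 2 of 0 h. Over all genes, the same omissions gave 2610, 2607, 2806 and 2931 calls in that order, in place of 4494. At 48 h against 0 h, 5 in place of 10 were called without replicate 1 of 48 h and 6 without replicate 2 or 3 of 48 h.

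**Figure D4:**
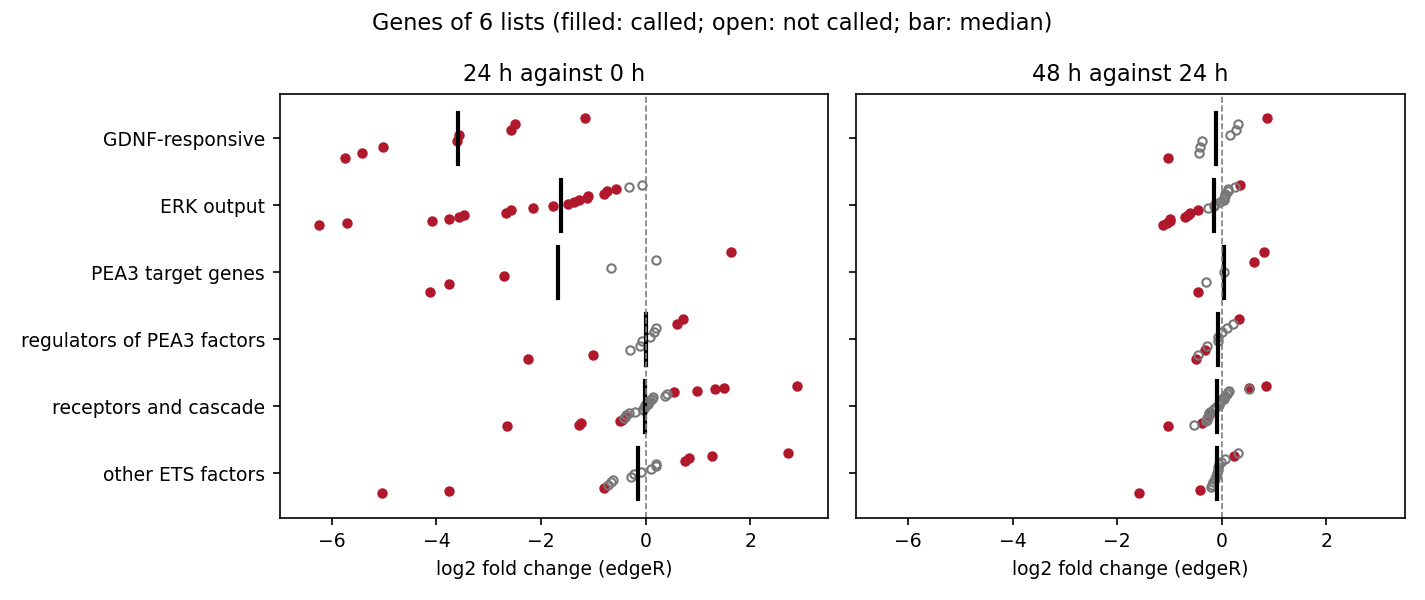
Log2 fold changes (horizontal axes) at 24 h against 0 h and at 48 h against 24 h for the tested genes of 6 lists, with filled points for genes called at an adjusted p of up to 0.05, open points for the others and a bar at each list's median. At 24 h against 0 h the medians are -3.59 for GDNF-responsive genes and -1.62 for ERK output, and 0.01 for regulators of PEA3 factors, while at 48 h against 24 h all 6 medians lie near 0.

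Between 24 h and 48 h, 25 genes of the 6 lists were called, beside 52 at 24 h against 0 h. Over all genes tested, 12.7% were called lower and 8.61% higher between 24 h and 48 h. Whether any list differs from these shares was not tested. The GDNF-responsive genes had 1 called lower and 1 higher of 8, the PEA3 targets 1 lower and 2 higher of 5, the regulators 2 lower and 1 higher of 10, the receptors and cascade 3 lower and 2 higher of 26 and the other ETS factors 2 lower and 1 higher of 15. The 3 targets called were Ret, which fell by 0.46, and Met and Mmp14, which rose by 0.81 and 0.61. Without replicate 1 of 24 h or of 48 h, 1 other ETS factor in place of 3 was called, and without replicate 1 of 48 h, 1 regulator in place of 3. Without replicate 2 of 48 h, 10 receptors and cascade genes in place of 5 were called.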

How the data were processed

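RNA-seq of EGFP-SSCs at 0 h, 24 h and 48 h gave 9 libraries, 3 per time. The authors deposited counts of reads per gene, without normalization. The submitters' processing notes name fastp, HISAT2, featureCounts and GRCm38, and versions, strand and multi-mapping settings are not given in the sources used here. Of 46078 identifiers, 45143 matched GENCODE M21, and unmatched ones held at most 0.121% of a library's counts. Each comparison of 2 times used its 6 libraries in edgeR 4.0.16 (R 4.3.3) with filterByExpr, TMM, the two-sided quasi-likelihood test and Benjamini-Hochberg adjustment over all genes tested, at a threshold of 0.05. CPM and FPKM were computed here from the counts. Etv1 did not pass the filter, so its CPM were compared with exact permutation tests in scipy 1.17.1. Count ratios used a pseudocount of 0.5. Likeness used log2 CPM with a prior count of 2. Genes named are the members, genes with matching sequence (BLAST 2.17.0), the 3 most alike per member, and genes of 6 lists. From the ERK, GDNF and target lists any tested gene could be named, and from the others genes of at least 10 CPM. Gdnf and Fgfr4 were exceptions, named after their values were seen. The values of 1 listed gene are not reported here. The members and lists were chosen with earlier results of these data known. Alternatives were DESeq2 1.42.0, other scalings, filters and fits, a replicate block and leaving out each library. The edgeR fit was tested on simulated data.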

Additional observations from a re-analysis of the deposited data

How the results depend on the processing

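Etv4 in all 3 comparisons and Etv5 in both comparisons with 0 h kept their direction and their call under every alternative run. From 24 h to 48 h, Etv5 ran from -0.62 to -0.49 as each library was left out (adjusted p 0.0133 to 0.0667, edgeR), and the call was lost without replicate 1 of 24 h or of 48 h, where fewer libraries were tested. The Etv1 difference at 24 h against 0 h turned to -0.0143 CPM without replicate 1 of 24 h, within a range of -0.0143 to 0.055 CPM. Leaving out each library moved the number of genes called from 4494 to between 2607 and 6023 at 24 h against 0 h, from 5602 to between 3471 and 7116 at 48 h against 0 h, and from 3732 to between 1857 and 4356 at 48 h against 24 h. That last number was 1043 when 1 fit held all 9 libraries, and the genes of the 6 lists called at 48 h against 24 h went from 25 to 13. Library size alone in place of TMM moved the share of calls that were higher from 44.5% to 57.1% at 24 h and from 41.2% to 52.8% at 48 h, against 0 h. With the longest transcript as length, Etv1 had 0.0214, 0.0253 and 0.0707 FPKM and Etv4 had 101, 6.80 and 3.82 FPKM at 0 h, 24 h and 48 h, and the PEA3 share at 24 h was 4.83% (an alternative chosen after seeing the data). Replicate numbers did not pair the libraries (correlations of deviations -0.294 to 0.2). With the replicate block, Etv4 changed by -3.86, -4.71 and -0.84 and Etv5 by -5.53, -6.07 and -0.54 in the 3 comparisons (largest adjusted p 0.0427, edgeR), the genes called numbered 3007, 4013 and 2497, and no call of Etv4 or Etv5 was lost. The alternative that adds Gm4798 counts to Etv5 was not run, since counts of Gm4798 were not used here. Etv1 passed the filter in 8 of the fits that left out 1 library, 4 at 48 h against 0 h (log2 changes 1.61 to 2.03, adjusted p 0.0504 to 0.165, edgeR) and 4 at 48 h against 24 h (1.22 to 1.81, adjusted p 0.0729 to 0.264), and not with a filter of 10 counts in every library. With the block, 2 regulators (24 h against 0 h) and 7 and 6 receptors and cascade genes (24 h and 48 h against 0 h) were called.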
